A study of Mus musculus with 4 samples.

Results

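The cells described here are CD8 T cells of the mouse pancreas whose receptor beta chain uses the variable segment Trbv15. A cell barcode was taken when it held at least 1 UMI of Cd3e, Cd3d or Cd3g, at least 1 UMI of Cd8a or Cd8b1, no Cd4 UMI, and more Trbv15 UMIs than UMIs of any other Trbv gene. A UMI (unique molecular identifier) stands for 1 captured RNA molecule. This rule gave 98 barcodes, out of 1220 CD8 barcodes and 10794 barcodes kept in the pancreas, and out of 19357 kept over the whole series. The pancreas library of Ocabfl/fl.CD4-Cre mice held 89 of them, 53 with at least 1 UMI of the alpha segment Trav8n-2 and 36 with none. The pancreas library of Ocabfl/fl control mice held 9, none of them with Trav8n-2. The segments were chosen because earlier results on these libraries had shown them to be frequent, so the shares below describe the cells and support nothing.

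The series compared 2 genotypes in 2 tissues, with 1 5′ single-cell RNA library per group. Both genotypes carried the floxed Ocab allele (Ocab is Pou2af1, a transcriptional coactivator of B and T cells), and CD4-Cre removes it in cells that express or have expressed Cd4, which includes the precursors of CD8 T cells. The pancreas libraries came from CD45+ leukocytes sorted from pre-diabetic females aged 12 weeks, 4 mice in each genotype. The lymph node libraries came from CD3 T cells of the pancreatic nodes, taken by magnetic separation from pre-diabetic females aged 8 weeks, 5 mice in each genotype. The labels give no strain and tie no barcode to a mouse, so cells of 1 mouse and cells of several mice cannot be told apart. With 1 library per group no difference between genotypes has a replicate check, and no test was made. All intervals are exact 95% intervals (Clopper-Pearson for shares, Poisson for levels) that cover counting error only.

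A T cell receptor joins an alpha and a beta chain, and each chain is built in the thymus by joining 1 variable segment to downstream segments, with random bases added at the joint. Cells that descend from 1 founder keep the same joined chains, so a shared pair of segments is what a clone leaves in RNA data, although unrelated cells can also share a pair. CD8 T cells recognise peptides on class I molecules, and in autoimmune diabetes CD8 T cells enter the islets and can kill the insulin-producing beta cells. A naive CD8 T cell circulates through lymph nodes with Ccr7 and S1pr1, whereas one that has met its antigen gains chemokines, granule proteins and, under lasting stimulation, inhibitory receptors.

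The beta segments on which the description turns are shown here as the exon that codes for the body of each variable domain, because both were found in the same barcodes. The sequences are read from the GENCODE M21 transcripts of the GRCm38 assembly, 5′ to 3′, and both genes lie on the plus strand. Capitals mark the end of each exon from the codon of the last cysteine that follows a tyrosine codon by 1 or 2 codons, where the part that codes for the antigen-contacting CDR3 loop begins.
Trbv15: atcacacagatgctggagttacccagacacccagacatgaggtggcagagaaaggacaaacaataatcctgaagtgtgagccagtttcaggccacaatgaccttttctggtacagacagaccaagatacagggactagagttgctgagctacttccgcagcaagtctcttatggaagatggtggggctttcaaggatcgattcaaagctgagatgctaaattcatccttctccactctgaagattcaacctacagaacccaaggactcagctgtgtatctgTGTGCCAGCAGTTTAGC
Trbv1: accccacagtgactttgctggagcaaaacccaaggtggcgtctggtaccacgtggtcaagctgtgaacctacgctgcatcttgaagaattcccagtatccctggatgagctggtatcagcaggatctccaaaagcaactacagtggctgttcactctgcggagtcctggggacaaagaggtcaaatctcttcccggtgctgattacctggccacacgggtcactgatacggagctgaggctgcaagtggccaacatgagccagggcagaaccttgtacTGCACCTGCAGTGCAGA
The Trbv15 exon covers chr6:41141361-41141658 and the Trbv1 exon chr6:40891591-40891885. Trbv1 and Trbv15 lie 249303 bases apart in the beta locus. Over the last 200 bases of the exon, compared position by position without gaps, Trbv15 matched Trbv16 best, at 72%, and Trbv1 matched Trbv29 best, at 34%. No gapped alignment was made. Trav8n-2 has close copies. Reads could therefore be split among the Trav8 copies, yet in the 53 Trav8n-2-positive barcodes Trav8d-2 was counted in 1 barcode and Trav8d-1 in 2, and Trav8-1 and Trav8-2 in none.

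The rule itself asks for the Cd8, Trbv15 and Trav8n-2 UMIs, so their counts only describe the members. In the 53 Trav8n-2-positive barcodes Cd8a was counted in 51 and Cd8b1 in 52, with medians of 5 and 6 UMIs per barcode. The 13 genes of general T cell identity (Lck, Lat, Thy1 and others) were together at a log2 ratio of 0.12 to the other CD8 barcodes of the library. Trbv15 UMIs ran from 3 to 90 per positive barcode with a median of 25, and from 3 to 48 with a median of 13 in the 36 negative barcodes. Trav8n-2 UMIs ran from 1 to 24 with a median of 6. At the edge of the rule, 4 CD4-Cre members had 3 Trbv15 UMIs and none had 1 or 2. Outside it, 4 CD8 barcodes had Trbv15 level with another Trbv gene and 7 had it below another, 3 of those below Trbv1. For Trav8n-2, 3 members had 1 UMI and 6 had 2. In the control library 1 of the 9 members had 2 Trbv15 UMIs, 2 CD8 barcodes had a tie and 10 had Trbv15 below another Trbv gene.

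Among CD8 barcodes with a Trbv call, Trbv15 led in 89 of 714 in the CD4-Cre pancreas, or 12.5% (10.1 to 15.1). It led in 9 of 447 in the control pancreas, or 2.01% (0.925 to 3.79), in 22 of 726 (3.03%) in the control lymph node and in 41 of 1552 (2.64%) in the CD4-Cre lymph node. The CD4-Cre pancreas held the highest of the 4 CD8 shares, which is a description, since the segment was chosen for its frequency there. CD4 T cell barcodes did not follow this order: Trbv15 led 8.74% of them in the control pancreas and 7.54% in the CD4-Cre pancreas, and 4.77% and 5.05% in the lymph nodes. B cell barcodes, which should lack the segment, held a Trbv15 UMI in 1 of 905 (0.110%) and 3 of 1325 (0.226%) in control and CD4-Cre pancreas, where the median barcode held 3564 and 3434 UMIs (CD8 barcodes: 3963 and 4200).

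**Figure D1:**
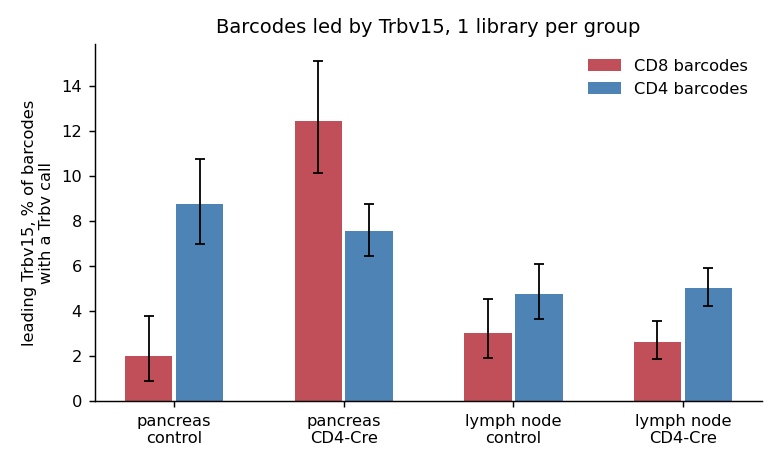
Share of barcodes led by Trbv15 (vertical axis, % of barcodes with a Trbv call) among CD8 (red) and CD4 (blue) barcodes of the 4 libraries, 1 library per group; bars are shares and whiskers exact 95% binomial intervals. The CD8 bar of the CD4-Cre pancreas, at 12.5%, is the highest CD8 bar, and the CD4 bars of the 2 pancreas libraries, at 8.74% and 7.54%, have overlapping whiskers.

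Trav8n-2 was in 59.6% (48.6 to 69.8) of the 89 CD4-Cre members, against 23 of 650 (3.54%) other CD8 barcodes and 2.51% of CD4 barcodes in the same library. No B cell barcode held it, in 905 control and 1325 CD4-Cre barcodes, where 3 counts would be 0.331% and 0.226%. Where both chains had a leading segment, the pair of Trbv15 and Trav8n-2 was the most frequent pair of the CD4-Cre pancreas CD8 barcodes, with 51 of 502 (10.2%), followed by Trbv13-3 with Trav16d-dv11 in 11. The control pancreas was led by that second pair, in 32 of 317 barcodes (10.1%), and held Trbv15 with Trav8n-2 in 0 of 317 (exact upper bound 1.16%). It was also at 0 of 581 and 0 of 1171 in the control and CD4-Cre lymph nodes. Of the 41 Trbv15 CD8 barcodes of the CD4-Cre lymph node, 3 held a Trav8n-2 UMI, and in none of the 3 was it the leading Trav gene.

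A second beta segment, Trbv1, accompanied Trbv15 in nearly every Trav8n-2-positive barcode. It was counted in 51 of 53 (96.2%; 87.0 to 99.5), in 50 of them with 2 or more UMIs, with a median of 9 UMIs and a range of 0 to 21. In the Trav8n-2-negative members it was in 1 of 36 with 5 UMIs, in the other CD8 barcodes in 39 of 650 (interval 4.30% to 8.11%), and in the 9 control members in none. A second Trbv gene of any kind with 2 or more UMIs was in 52 of the 53, in 9 of 36 negative members, in 87 of 650 other CD8 barcodes (13.4%) and in 5 of the 9 control members. Within the 51 barcodes Trbv1 made up a median of 25.7% of the Trbv1 and Trbv15 UMIs, from 8.33% to 46.2%. A further alpha segment, Trav9-1, was in 13 of the 53 barcodes, in 12 of them with 1 UMI. In the control pancreas Trav9-1 was in 33 of 472 other CD8 barcodes (6.99%) and in 10 of 80 CD4 barcodes led by Trbv15 (12.5%). The 3 segments Trbv15, Trbv1 and Trav8n-2 met in 55 of 739 CD8 barcodes of the CD4-Cre pancreas, in 10 of 154 T cell barcodes with both Cd4 and Cd8, in 2 of 1496 with neither, and in 0 of 2230 CD4 barcodes. They met in no T cell barcode of the control pancreas and in no CD8 barcode of either lymph node, and in 1 CD4 barcode of each lymph node library.

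**Figure D2:**
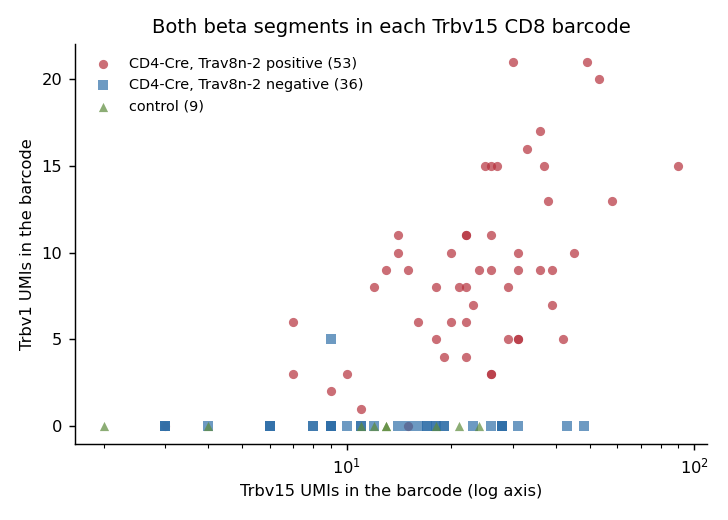
Trbv15 UMIs (horizontal log axis) against Trbv1 UMIs (vertical axis) in each Trbv15 CD8 barcode of the pancreas; points are barcodes, coloured by library and Trav8n-2. The Trav8n-2-positive points rise off the horizontal axis, with Trbv1 in 51 of 53, while 35 of 36 negative and all 9 control points lie at 0 Trbv1 UMIs.

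The remaining receptor genes followed the same line. Trgv2, a gamma-chain variable segment that alpha-beta T cells may also transcribe, was in 44 of 53 positive barcodes (83.0%; 70.2 to 91.9), all 44 of which held Trbv1 too. It was in 9 of 36 negative members (25.0%) and 106 of 650 other CD8 barcodes (16.3%; 13.5 to 19.4), in 2.02% of CD4 barcodes and in 1 of 1325 B cell barcodes. Trgv2 was also frequent elsewhere: in the control pancreas it was in 43 of 74 CD8 barcodes led by Trbv13-3 (58.1%) and in 158 of 472 other CD8 barcodes (33.5%). The gamma constant genes Tcrg-C2 and Tcrg-C4 were in 25 and 24 of the 53 positive barcodes and in 60 and 65 of the 650 others, while the delta constant gene Trdc was in 3 of 53. Trbc1, the first of the 2 beta constant genes, gave 104 of 195 Trbc1 and Trbc2 UMIs in the positive barcodes (53.3%; 46.1 to 60.5), 17 of 82 in the negative ones (20.7%) and 503 of 1678 in the others (27.8% to 32.2%). Trbc1 and Trbc2 are near-identical copies, so this split is uncertain. The 60 Traj, 14 Trbj and 2 Trbd genes of the table had 0 UMIs in the members, so neither the joints nor their sequences could be compared.

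The Trav8n-2-negative members were not uniform. Of the 36, 10 held Trav6-1, 9 of these as the leading Trav gene and 7 together with Trav7-4; none of the 10 held Trbv1 or Trav8n-2. In 9 of the 36 no Trav UMI was counted, and the rest had a tie or were led by Trav genes that each led 1 or 2 barcodes. Trav6-1 was in 9 of 650 other CD8 barcodes (1.38%) and in no control member.

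Total UMIs were 312608 over the 53 positive barcodes, 244306 over the 36 negative ones, 3520910 over the 650 other CD8 barcodes of the same library and 46761 over the 9 control members, with medians of 4607, 4740.5, 4173 and 6270 per barcode. The 10 Trav6-1 barcodes were deeper than these sets, with a median of 10444.5 UMIs, and the other 26 negative members had a median of 3543.5. The 4 libraries listed 3059 to 6963 barcodes, of which 2918 to 6626 were kept with at least 500 genes and at most 10% mitochondrial UMIs. Pairs of libraries shared 21 to 70 barcodes by name, none of them a pancreas member. Pou2af1, the deleted gene, was low in CD8 barcodes of both libraries: 1 UMI in the positive members, 3 in the negative ones, 18 in the other CD8 barcodes of CD4-Cre (5.11 CPM, where CPM is the level of a gene scaled to a common UMI total) and 32 in those of the control (13.5 CPM), against 239 and 216 CPM in the B cells of each. At these counts a loss in the members was not detectable. No doublet caller was run. RNA of other lineages was counted beside the cells: 15 B cell, plasma cell, myeloid and exocrine markers summed to a median of 1 UMI in the positive barcodes (range 0 to 410), 2 in the negative ones (0 to 430) and 1 in the others (0 to 5870), and reached 10 UMIs in 5 of 53, 6 of 36 and 55 of 650. Values of the main lists without these barcodes are given below.

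To describe the state of the cells, UMIs were summed over each set of barcodes, and a log2 ratio of CPM was formed for the 9096 genes with at least 20 UMIs over both sets. A gene is called past 2-fold when its log2 ratio is 1 or more, or -1 or less. Of the 9096 genes, 716 (7.87%) were past 2-fold higher in the Trav8n-2-positive barcodes than in the 650 other CD8 barcodes and 825 (9.07%) past 2-fold lower, so that 46.5% of these genes were higher. That split depended on the scaling: 30.3% were higher with edgeR's TMM (491 higher, 1132 lower), 30.5% with DESeq2 size factors and 34.2% with receptor and ribosomal protein genes left out of the total. TMM moved every log2 ratio of this comparison by -0.19 and DESeq2 by -0.18. In either direction and of any size, 55.7% of genes were higher and 42.4% lower, with a median of 0.08.

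Genes of the naive state were lower throughout. All 14 of the naive list were lower in the Trav8n-2-positive barcodes, 10 of them past 2-fold, with a median log2 ratio of -2.39 and a ratio of the summed list of -1.91 (-2.08 to -1.74). Ccr7, the chemokine receptor for entry into lymph nodes, was in 6 of 53 barcodes at 57.6 CPM, against 374 of 650 at 299 CPM, a log2 ratio of -2.38. S1pr1, the receptor for leaving tissue, was at 28.8 against 181 CPM (-2.65). The transcription factors Lef1 and Tcf7 of naive and stem-like T cells were at -2.74 and -2.15, Klf2 at -1.63 and Satb1 at -2.50. Il7r, the receptor for the survival cytokine IL-7, was in 5 of 53 barcodes and 369 of 650, at -2.40. Foxp1, Bach2, Actn1 and Txk were lower by less than 2-fold, from -0.86 to -0.52.

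Chemokine genes moved the other way. In the list of cytokines and chemokine ligands 6 of 11 genes were past 2-fold higher and none lower, and the summed list was at 1.89 (1.86 to 1.93). Ccl5, a chemokine stored by memory and effector CD8 T cells, made up most of it: it reached 29663 CPM in the positive barcodes and 6857 CPM in the others (2.11), with UMIs in 52 of 53 barcodes. Per barcode, Ccl5 gave a median of 33.9 of every 1000 UMIs in the positive set (0 to 101), 6.49 in the negative set and 0 in the others (0 to 83.0), so the ranges overlapped while the medians lay apart. The inflammatory chemokines Ccl3 and Ccl4 were at 4.26 and 2.47, but Ccl3 came from 16 of 53 barcodes, 1 of which held 38.0% of its UMIs. Ifng, the type II interferon, was in 31 of 53 barcodes at 221 CPM against 46.0 CPM (2.26), and Fasl, a death ligand, in 35 at 1.85. Xcl1 at -0.33, Ltb at -0.11 and Il16 at -0.15 were not past 2-fold.

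**Figure D3:**
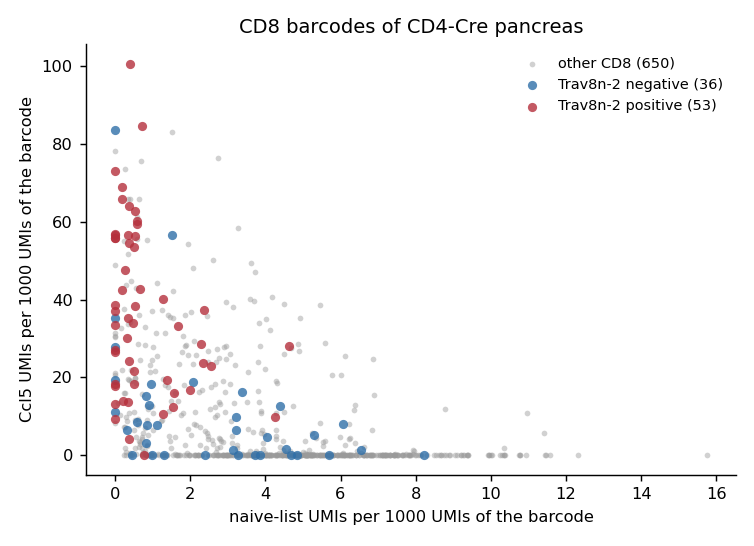
Each point is a CD8 barcode of the CD4-Cre pancreas, placed by its UMIs of the naive list (horizontal axis) and of Ccl5 (vertical axis), both per 1000 UMIs of the barcode. The 53 Trav8n-2-positive barcodes lie mostly to the upper left, with medians of 0.379 and 33.9, the 36 negative ones are spread with medians of 2.23 and 6.49, and the 650 others have medians of 3.97 and 0.

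Granule genes were mixed. Of 12 cytotoxic granule genes, 2 were past 2-fold higher and 1 lower, with a median of 0.05. Nkg7, a granule membrane protein, was in all 53 positive barcodes with 4 to 65 UMIs and a median of 22 (4271 against 1520 CPM, 1.49). Gzmk, a granzyme of memory-like CD8 T cells, was in 44 of 53 barcodes against 153 of 650 (518 against 222 CPM, 1.22). Gzma was lower at -0.68, in 6 of 53 barcodes, and Gzmb stood at -0.23 (-0.84 to 0.33), an order that turned to 0.60 with equal weight for each barcode. Gzmb was also at 0.43 when the other CD8 barcodes had to hold a Trbv UMI, and at 0.28 with both Cd8 genes required. Gzmm was at 0 UMIs in the positive barcodes and 74 in the others, 2.19-fold lower with 3 counts in place of 0. Its call as past 2-fold lower rests on that floor of 9.60 CPM, as the exact interval at 0 UMIs reaches 11.8 CPM. Prf1, which forms the pores for granzymes, was at 0.59. The terminal effector list was at 0.44, but of its defining genes Klrg1 was in 1 of 53 barcodes (-0.17) and S1pr5 in none. Cx3cr1, a receptor of effector cells, was in 3 barcodes at 0.41, turning to -0.89 without barcodes that held 10 or more lineage marker UMIs and to -0.55 with equal weight for each barcode.

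Inhibitory receptors and the exhaustion-linked factor Tox were higher. Of 13 genes in that list 10 were past 2-fold higher and 1, Btla with 1 UMI, lower; the median was 1.76 and the summed list was at 1.55 (1.42 to 1.68). Pdcd1, which codes for PD-1, was in 40 of 53 barcodes with 0 to 10 UMIs and a median of 2, at 461 against 103 CPM (2.16). Havcr2 (Tim-3) was at 89.6 against 10.5 CPM (3.09), Cd200r1 at 2.80, Tigit at 1.76, Ctla4 at 1.42, Lag3 at 1.25, Entpd1 (the ectoenzyme CD39) at 2.10 and Tox at 1.31. Cd160 (0.60) and Cd200 (-0.69) were not past 2-fold. At least 2 UMIs of this list were in 52 of 53 positive barcodes, 22 of 36 negative ones and 239 of 650 others.

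Genes of tissue residency were higher in 9 of 11 cases, 6 past 2-fold, with a median of 1.14 and a summed ratio of 1.62 (1.52 to 1.73). Cxcr6, the receptor for a chemokine that retains T cells in tissue, was in 50 of 53 barcodes with a median of 9 UMIs (0 to 24), at 1635 against 269 CPM (2.60). The integrin genes Itga1 and Itgae were at 1.89 and 1.14, with UMIs in 13 and 9 of 53 barcodes, and Rgs1 at 1.72. Prdm1, a regulator of effector and resident cells, was at 2.05 with 11 UMIs, while Zfp683 (Hobit) had 1 UMI and Cd69 stood at -0.16, turning to 0.06 with equal weight for each barcode. Of 16 homing receptor and integrin genes 3 were past 2-fold higher, among them Cxcr6 and the inflammatory receptor Ccr2 (1.36), and 2 lower, Ccr9 and Cxcr4 (-1.22, with 4 UMIs in the positive barcodes, turning to 0.099 with equal weight for each barcode). Ccr9, which guides cells to the gut, was at 0 UMIs in the positive barcodes and in 107 of 650 others. It was 4.68-fold lower with 3 counts in place of 0 (exact bound of the log2 ratio -1.91). Cxcr3 was near its level in the other cells (0.24).

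The other lists moved less. Of 8 NK receptor genes 2 were past 2-fold higher, Klre1 (1.77) and Klrc1 (1.26), with the summed list at 0.96. The memory and progenitor list was at 0.34, with Cd7 (1.59) and Il2rb (1.02) past 2-fold higher and Tcf7, Il7r, Id3 and Slamf6 lower. Genes induced by receptor signalling were at 0.10, turning to -0.09 with TMM, with Nr4a2 at 1.57, Nr4a1 at 1.30 and Egr2 at -2.64; 1 barcode held 48.3% of the Nr4a1 UMIs. The proliferation list was at -0.08, and at 0.15 with equal weight for each barcode, and 2 barcodes held 169 of its 439 UMIs. The interferon response list was at -0.43, with Isg20 higher (1.86) and Tgtp1 (-2.46) and Gbp2 (-1.33) lower, and the dissociation stress list at 0.11.

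Markers of other cells were also compared, since RNA of neighbours enters barcodes. The B cell list was at -1.71 (all 8 genes lower), the plasma cell list at -3.68, the exocrine list at -4.05 (all 11 lower) and the regulatory and CD4 list at -0.79, all lower in the positive barcodes. Such sums can rest on few barcodes of the other set: Jchain had 2397 UMIs in 13 of the 650. The 15 lineage markers had a median of 1 UMI per barcode in both sets, and reached 10 in 5 of 53 and 55 of 650. The myeloid list was at 0.34, with 4 of 12 genes higher (Csf1r, Cd74, H2-Aa and Cst3), 8 lower and a median of -0.67; C1qa and C1qc had 0 UMIs in the positive barcodes, and 1 barcode held 59.7% of the Cd74 UMIs. The NK cell list was at 0.80, with 41.2% of the Fcer1g UMIs in 1 barcode, Ncr1 at 0.18 and Klra8 at 0 UMIs. The gamma-delta list was between 1.69 and 2.30, with Tcrg-C2 at 2.73 and Tcrg-C4 at 2.31 but the defining Trdc at -0.36. The red cell and platelet list had 0 UMIs in the positive barcodes and 21 in the others, and the islet list 1 and 123. The part of these cells' RNA in the results was not tested. Without the barcodes that held 10 or more lineage marker UMIs (48 positive and 595 other barcodes left, chosen after the data were seen) the naive list was at -2.19, the cytokine list at 1.99, the residency list at 1.81 and the inhibitory list at 1.70.

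Ranked over all genes left after the exclusions, the highest ratios were those of Adgrg1 (5.33), an adhesion receptor of cytotoxic lymphocytes with 25 UMIs in 18 of 53 barcodes and 7 UMIs in 7 of 650, then Ccl3, Ppp2r2c (3.77, a phosphatase 2A subunit, in 25 of 53 barcodes), Xlr (3.76), Havcr2 and Cd200r1. Camk2n1, an inhibitor of CaM kinase II, was at 2.49 and the actin-capping gene Capg at 2.36. Metrnl was at 2.36, with 21 UMIs in 9 of 53 barcodes, 42.9% of them in 1 barcode. Ms4a6c stood at 2.45, but 57.1% of its UMIs were in 1 barcode. Among the lowest were genes of naive T cells: Dapl1 (-5.62, 222 of 650 other barcodes), Igfbp4 (-4.41, 153), Pik3ip1 (-4.08, 151), an inhibitor of PI3 kinase, Nsg2 (-3.90, 204), Tdrp (-3.78, 127) and Kbtbd11 (-3.46, 170). The other 6 of the 12 lowest were the macrophage gene Retnla (-6.51) and the acinar genes 2210010C04Rik, Ctrl, Zg16, Rnase1 and Ctrc, and their UMIs lay in only 11 to 21 of the 650 barcodes. Ctrc turned from -4.34 to 1.03 without the 1 other CD8 barcode that held most of its UMIs. Tnfsf8, the CD30 ligand, was at 0 in the positive barcodes and in 85 of 650 others. It was 3.05-fold lower with 3 counts in place of 0 (exact bound of the log2 ratio -1.28).

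**Figure D4:**
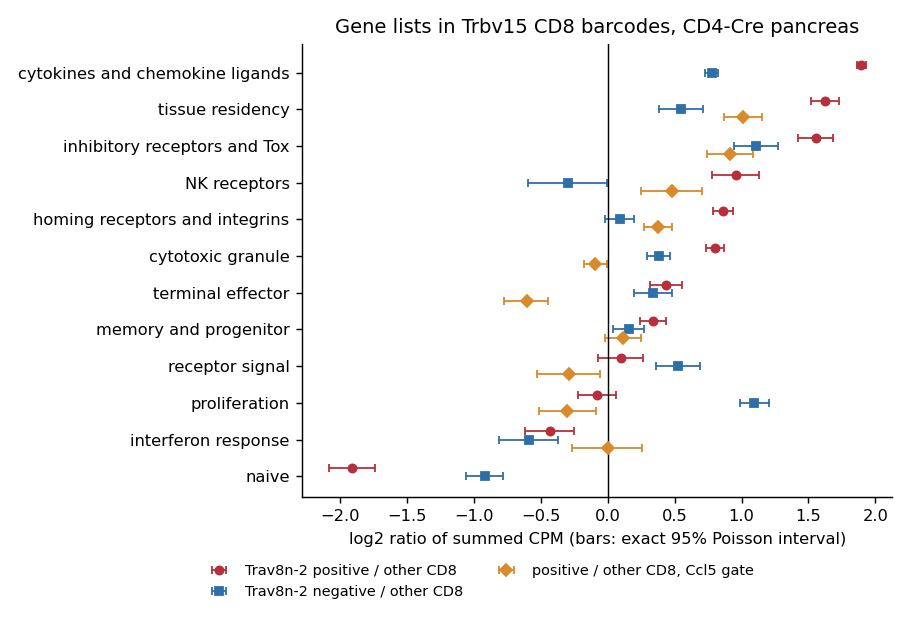
Log2 ratio of summed CPM (horizontal axis, with exact 95% Poisson intervals as bars) for 12 gene lists: Trav8n-2-positive over other CD8 barcodes (red), negative over other (blue) and positive over other after the same Ccl5 gate on both sides (orange). The residency and inhibitory lists lie right of 0 in all 3 comparisons, the cytokine list right and the naive list left of 0 in the first 2 (both hold gate genes, so no gated point is drawn), and the proliferation list right of 0 in the negative set alone, at 1.10.

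The shares of barcodes with a UMI showed the same order after each barcode was thinned to 1000 UMIs, which removes differences in depth. Cxcr6 was then in 73.6% (59.7 to 84.7) of positive barcodes and 16.8% of the other CD8 barcodes, against 94.3% and 37.5% unthinned. Pdcd1 was in 43.4% (29.8 to 57.7) and 6.94% (5.11 to 9.18), Gzmk in 37.7% and 13.3%, and Klf2 in 9.43% and 55.4%. In the B cells of that library Cxcr6, Pdcd1 and Gzmk were each in 0 of 1320 barcodes at the same depth, which allows up to 0.227%. Only 2 of the 650 other barcodes and no member were too shallow to be thinned.

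Many of the other CD8 barcodes were naive, so the comparison was repeated between barcodes with at least 2 Ccl5 UMIs and no Lef1 or Ccr7 UMI. This gate kept 36 of 53 positive barcodes (67.9%), 14 of 36 negative ones (38.9%) and 126 of 650 others (19.4%); the gate genes themselves are left out of what follows. Of 5252 genes, 280 (5.33%) were past 2-fold higher in the 36 and 419 (7.98%) lower, with a median of 0.04. The inhibitory list stayed at 0.91 (0.74 to 1.09) with 4 of 11 genes past 2-fold higher, Cd200r1 (2.46), Havcr2 (2.15), Entpd1 (1.39) and Pdcd1 (1.15). The residency list stayed at 1.01 (0.87 to 1.15), with 2 of 10 genes past 2-fold higher, Cxcr6 (1.45) and Rgs1 (1.01). Adgrg1 was at 3.68 and Ccl3 at 2.84, but Ccl3 came from 12 of 36 barcodes, 1 of which held 48.8% of its 41 UMIs.

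Within the gate none of 12 granule genes was past 2-fold higher, and Gzma (-2.49) and Gzmb (-2.08) were lower. Gzma was in 5 of 36 barcodes and 20 of 126, with 69.2% of its UMIs in the 36 from 1 barcode. Gzmk stood at -0.11 and Nkg7 at 0.63. The summed list was at -0.09, turning to 0.10 with equal weight for each barcode or with both Cd8 genes required. It was at 0.12 when the other barcodes had to hold a Trbv UMI. Levels of single genes within the gate were not computed under these alternatives. The terminal effector list was at -0.61, with Cx3cr1 at 2 UMIs against 37 (-2.33). Genes of stem-like and circulating cells were also lower: Tcf7 at 2 UMIs against 69 (-3.23), Slamf6 at 2 against 85 (-3.53), S1pr1 at 1 against 44 (-3.58) and Klf2 at -2.28. Il7r was at 0 UMIs in the 36 positive barcodes and 121 in the 126 others. It was 11.0-fold lower with 3 counts in place of 0 (exact bound of the log2 ratio -3.14). All 5 positive barcodes with an Il7r UMI also held Lef1 or Ccr7 UMIs, so the gate had left them out. Trbv1 was in 35 of the 36 gated positive barcodes and 9 of the 126 others, and Trgv2 in 30 of 36 and 55 of 126 (43.7%).

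A comparison added after the data were seen set the positive barcodes against the 64 CD8 barcodes led by Trbv13-3 in the same library, another frequent beta segment. No gate was applied, and 52 of the 64 held 5 or more UMIs of the naive list, against 14 of the 53 positive barcodes. The Ccl5 gate would have kept 18 of the 64 and 36 of the 53. Of 4671 genes, 335 (7.17%) were past 2-fold higher in the positive barcodes and 223 (4.77%) lower, with a median of 0.06. The naive list was at -1.56 with 11 of 14 genes past 2-fold lower, the residency list between 1.34 and 1.67 with 5 of 8 higher, and the cytokine list at 1.66 with 5 of 8 higher. The inhibitory list was at 0.59 with 3 of 11 higher, Cd200r1 (3.83), Havcr2 (1.92) and Entpd1 (1.28), while Lag3 (0.13), Tox (0.61) and Pdcd1 (0.65) were not past 2-fold. The proliferation list was at -1.25, and at -0.40 without the 2 Trbv13-3 barcodes that held 718 of the 1411 UMIs of that set. Without the leading 2 barcodes of both sets it was at -0.94 (-1.15 to -0.73). The median was 4 UMIs per barcode in both sets. All 6 myeloid markers that could be compared were also higher in the positive barcodes (1.14), and their part in the values was not tested. In the control pancreas the 74 barcodes led by Trbv13-3 had Ccl5 at 26999 CPM, Cxcr6 at 778, Pdcd1 at 314 and Gzmk at 388 CPM, beside 29663, 1635, 461 and 518 CPM in the positive CD4-Cre barcodes.

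The Trav8n-2-negative members, summed as 1 set, differed from the other CD8 barcodes in the same direction as the positive ones for several lists. For some lists and genes, values of their 10 Trav6-1 barcodes and of the other 26 are given beside those of the whole set. Of 9040 genes, 608 (6.73%) were past 2-fold higher and 785 (8.68%) lower, with a median of 0.04; higher genes were 43.6% of these, and 28.1% with TMM, which moved the ratios by -0.16. The naive list was at -0.92 (-1.06 to -0.78), with 9 of 14 genes past 2-fold lower, Ccr7 at -1.43 and Dapl1 at -2.45. The inhibitory list was at 1.11 with 5 of 12 genes higher, among them Tox (1.42), Lag3 (1.39) and Entpd1 (1.61), and the cytokine list at 0.78. Split after the data were seen, the inhibitory list was at 1.88 (1.69 to 2.06) in the 10 barcodes with Trav6-1 and at -0.15 (-0.48 to 0.17) in the other 26, which had Tox at 74.8 CPM and Lag3 at 105 CPM beside 90.0 and 134 CPM in the other CD8 barcodes. The naive list was at -2.02 in the 10 and at -0.39 in the 26, with Ccr7 at -3.05 and -0.80. The cytokine list was at 1.12 in the 10 and 0.42 in the 26. Ccl3 was at 5.22, with 140 UMIs in 5 of 36 barcodes, 139 of them in Trav6-1 barcodes. The residency list was at 0.55 (0.39 in the 10 and 0.67 in the 26), with Cxcr6 at 0.78 and only Prdm1 past 2-fold higher. Receptor signalling genes were at 0.53 with 7 of 16 higher, Nfkbid at 2.43 and Nr4a1 at 1.25, beside a dissociation stress list at 0.49 with 4 of 11 higher. The part of dissociation in the receptor signalling genes was not tested. Nfkbid was at 1.31 in the 10 and 2.97 in the 26, and Nr4a2 at 3.07 and -1.49. The myeloid list was at 0.15 with 6 of 12 genes past 2-fold higher, and the B cell list at -0.22; the myeloid list was at -2.33 in the Trav6-1 barcodes and 0.90 in the other 26. Without the barcodes that held 10 or more lineage marker UMIs the proliferation list below was at 1.49, and the terminal effector list turned from 0.34 to -0.10.

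The proliferation list was at 1.10 (0.99 to 1.21) in the negative members, with 7 of 14 genes past 2-fold higher, among them Tyms (2.23), Stmn1 (2.03) and Top2a (1.55). This value rested on few cells: 2 of the 36 barcodes held 561 of the 776 UMIs of the list, and without them it was at -0.53 (-0.73 to -0.33). The 10 barcodes with Trav6-1 held 668 of the 776 UMIs and ran from 0 to 301 UMIs each, and the list was at -0.88 in the other 26. The 10 also had Tox at 443 CPM, Lag3 at 651 CPM and Ccl3 at 1257 CPM, against 90.0, 134 and 15.3 CPM in the other CD8 barcodes, with the Ccl3 UMIs from 4 barcodes. Each of the 10 held 2 or more lineage marker UMIs, with a median of 4 and a range of 2 to 38, against a median of 1 in the other CD8 barcodes, and their greater depth is given above. The part of other cells' RNA in these levels was not tested.

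Set against each other, the positive barcodes had 268 of 3978 genes (6.74%) past 2-fold higher than the negative ones and 182 (4.58%) lower, with a median of 0.03. Higher genes were 59.6% of these, and 48.8% with receptor and ribosomal genes left out of the total. The naive list was at -0.99 with 6 of 12 genes past 2-fold lower, Igfbp4 at -3.60 and Il7r at -1.98. The residency list was at 1.07, with Cxcr6 (1.82), Itga1 (1.64) and Rgs1 (1.01) past 2-fold higher, and all 4 NK receptor genes that could be compared were past 2-fold higher, Klrk1 (1.62), Klrc1 (1.47), Klrd1 (1.38) and Klre1 (1.32). Ccl5 was at 1.39 and Ifng at 1.17, but Xcl1 was at -1.42 and Ccl4 at -0.69. Of the inhibitory genes Cd200r1 (3.04), Havcr2 (2.87) and Pdcd1 (1.26) were higher and Cd200 (-1.62) lower, with Tox (-0.11) and Lag3 (-0.14) near level. These ratios average over unlike negative members. Tox was at 443 CPM in the 10 Trav6-1 barcodes and 74.8 CPM in the other 26, and Lag3 at 651 and 105 CPM. Ccl4 was at 1872 and 531 CPM, beside 707 CPM in the positive barcodes. The proliferation list was at -1.18 with 6 of 11 genes past 2-fold lower, but this order was lost without the 2 negative barcodes that held 561 of the 776 UMIs (0.45; 0.21 to 0.69) and without the leading 2 of both sets (-0.09; -0.35 to 0.18). The B cell list was at -1.49. Without barcodes that held 10 or more lineage marker UMIs the naive list was at -1.23.

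**Figure D5:**
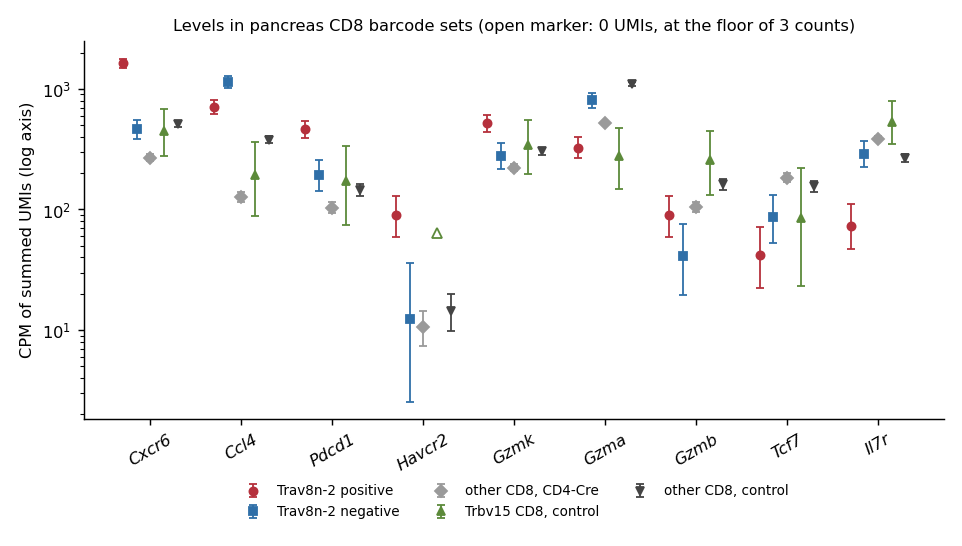
CPM of summed UMIs (vertical log axis) for 9 genes in 5 sets of pancreas CD8 barcodes, with exact 95% Poisson intervals as bars; an open marker stands for 0 UMIs, drawn at the level of 3 counts. Cxcr6, Pdcd1, Havcr2 and Gzmk are highest in the Trav8n-2-positive set (1635, 461, 89.6 and 518 CPM), Ccl4 is highest in the negative set (1138 CPM), and Tcf7 and Il7r are lowest in the positive set.

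The 9 control members were too few for more than values. They had Ccl5 at 15290 CPM in 7 of 9 barcodes, Cxcr6 at 449 CPM in 5, Pdcd1 at 171 CPM in 4 and Gzmk at 342 CPM in 4, with Lef1 at 364 CPM in 6 and Il7r at 535 CPM in 6. Tox, Havcr2 and Entpd1 were at 0 UMIs, where 3 counts would be 64.2 CPM. The inhibitory list as a whole was not absent. At least 2 of its UMIs were in 6 of the 9 barcodes, with a median of 2 and a range of 0 to 47. No leading Trav gene was shared: 6 Trav genes led in 1 barcode each and 3 barcodes had no Trav UMI. The Trbv15 CD8 barcodes of the lymph nodes, from younger mice and another isolation, had Lef1 at 644 CPM in the CD4-Cre node (37 of 41 barcodes) and at 926 CPM in the control node (22 of 22). Ccl5 was there in 1 of 41 and 0 of 22 barcodes, and Ifng, Gzmk and Tigit were at 0 UMIs in both nodes.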

How the data were processed

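Counts per gene and cell barcode in 4 libraries, 1 for each group, were used as deposited. Per the submitters' processing notes the authors used Cell Ranger and the build mm10, and the file headers give software version 3.0.0; the annotation and any filter before deposit are not given in the sources used here. From these raw UMI counts, barcodes with at least 500 genes and at most 10% mitochondrial UMIs were kept. The members and the 25 gene lists were chosen with earlier results of these data known.

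For each set of barcodes the UMIs of a gene were added up and divided by the set's total to give CPM. Log2 ratios have exact conditional Poisson intervals, shares Clopper-Pearson intervals, and a value of 0 a floor of 3 counts. Cells are not replicates and each group had 1 library, so no test was run. Genes named outside the lists were the 12 highest and 12 lowest log2 ratios of Trav8n-2-positive over other CD8 barcodes, among genes with at least 20 UMIs in at least 5 barcodes of the higher set, at least 1 UMI in the other (genes at 0 are given as bounds) and CPM intervals that did not overlap. The ranking omitted T cell receptor, immunoglobulin, haemoglobin, mitochondrial and ribosomal genes, the Cd3, Cd8 and Cd4 genes of the rule, and the exocrine and islet lists; acinar genes outside those lists remained. The Trbv13-3 and Trav6-1 sets, and the values without barcodes that lead the proliferation list, were added after the data were seen. Shares were also computed after thinning to 1000 UMIs. edgeR 4.0.16 (TMM) and DESeq2 1.42.0 (size factors) in R 4.3.3 gave alternative scalings of the summed counts; the rest used Python 3.11.15, scipy 1.17.1 and pandas 2.3.3. The code was tested on simulated data. The barcodes kept had median totals of 3655.5 and 3680 UMIs in the control and CD4-Cre pancreas and 4649.5 and 4481 in the lymph nodes. Positions and sequences come from GENCODE M21 on GRCm38, the assembly that mm10 names. Some members of the lists and some segment sequences are not reported here.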

Additional observations from a re-analysis of the deposited data

How the results depend on the processing

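No paired analysis was possible because each group had 1 library. The directions of the naive, cytokine, residency and inhibitory lists in the Trav8n-2-positive barcodes held under every alternative that gave a value. Their sizes (-1.91, 1.89, 1.62 and 1.55) moved with scaling to -2.10, 1.70, 1.43 and 1.36 (TMM), to -2.09, 1.71, 1.44 and 1.37 (DESeq2), and for the last 3 to 1.75, 1.48 and 1.41 without receptor and ribosomal genes in the total. Equal weight for each barcode gave -2.44, 2.10, 1.93 and 1.91, with 1083 genes past 2-fold higher. The cytokine list was at 1.85 when both Cd8a and Cd8b1 were required and at 1.96 when Trav8n-2 had to lead.

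Counts of genes past 2-fold (716 higher, 825 lower) were 267 and 313 with a pseudocount of 10 CPM and 379 and 517 with at least 50 UMIs, and 1604 were higher with no minimum. Trbv1 was in 100% of barcodes with at least 2 Trav8n-2 UMIs.

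In the negative members the naive list (-0.92) was at -1.06 with both Cd8 genes, -1.08 (TMM), -1.07 (DESeq2) and -0.67 (equal weight), and the proliferation list (1.10) at 0.93, 0.95 and 0.73 under the last 3. Positive over negative, equal weight gave -1.77 for the naive and -0.58 for the proliferation list. The memory list of the negative members was at -0.0041 with TMM.

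Leaving out barcodes with 10 or more lineage marker UMIs, chosen after seeing the data, gave -2.19, 1.99, 1.81 and 1.70 for the 4 lists, 1.49 for proliferation and -0.10 for terminal effector genes in the negative members, -1.23 (naive) and -1.58 (proliferation) for positive over negative, and 1.23 for residency within the gate. The granule list within the gate reversed from -0.09 to 0.10 (both Cd8 genes; equal weight), 0.012 (Trav8n-2 leading) and 0.12 (others with a Trbv UMI). Ctrc, lower in the positive barcodes, turned to 1.03 without the barcode of the other CD8 set that held most of its UMIs.

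Leaving out barcodes with a second Trbv segment or lineage markers removes by construction the barcodes with Trbv1: 1 positive, 10 negative and 362 other barcodes remained. Trbv15 then led 3.10% of CD8 barcodes in CD4-Cre and 0.889% in control, Trav8n-2 was in 9.09% of members, and Trbv1 and Trgv2 were in 0% of the 1 positive barcode. Levels of the positive set were not computed below 10 barcodes. For the negative members the naive list was at -0.31, granule genes at -0.14, proliferation at -0.032 and terminal effector genes at -1.13.

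Genes with few UMIs in 312608 positive and 244306 negative UMIs are limited by depth: 3 counts are 9.60 and 12.3 CPM.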
